A study of Mus musculus with 16 samples.

Results

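The 10 genes described here belong to the fibroblast growth factor (FGF) pathway. They are the ligands Fgf1, Fgf2, Fgf7 and Fgf10, the receptors Fgfr1 and Fgfr2, and the feedback and target genes Spry1, Spry2, Dusp6 and Etv5. They were chosen by name for their place in the pathway, with earlier results of these data known. All 10 are in the count table, and the table holds 17721 genes. The study dissected single nipple, duct and terminal end bud (TEB) fragments from mammary glands of mice in puberty and asked how mammary cells differ with their location. The groups were 4 nipples, 6 ducts and 6 TEBs, the last being the growing tips of the ducts. All 16 fragments carry the strain label C57BL/6, and the study's figure legend describes K14-Cre/R26-mTmG animals 5 weeks old, in which the keratin 14 promoter drives Cre and a membrane reporter changes colour in recombined cells. The same genotype is thus given for all groups, although the study's methods also allow wild-type C57BL/6 mice. The labels do not name the mouse of a fragment, so p-values measure the spread between fragments, some of which may share an animal.

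FGFs are secreted proteins that bind receptor tyrosine kinases on neighbouring cells with the help of heparan sulfate chains. Receptor activation runs through the RAS and ERK kinases and turns on the ETS transcription factors Etv4 and Etv5 together with inhibitors of the same cascade, the Sprouty proteins and the ERK phosphatase Dusp6. In the embryonic and pubertal mammary gland Fgf7 and Fgf10 are known as stromal ligands and Fgfr2 as an epithelial receptor needed for ductal outgrowth.

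Each cell was sorted into a well, and its RNA was counted as unique molecular identifiers (UMIs) from the 3' end of transcripts. Totals ran from 2385065 to 3381040 UMIs in nipple fragments, from 2050990 to 3434770 in ducts and from 1856141 to 5233122 in TEBs. Of 1419 cells, 1317 passed the filters and were clustered into 294 basal, 426 ER+ luminal, 178 ER- luminal, 252 fibroblast and 78 myeloid cells, with 89 cells left unnamed. The markers that name the classes were highest in their own class for 9 of 9 basal, 7 of 8 ER+ luminal, 6 of 7 ER- luminal and 7 of 7 fibroblast genes. Levels below are CPM, the UMIs of a gene scaled to a fixed library total, in the summed cells of a class in a fragment with at least 5 such cells. UMI counts of 3' ends do not scale with transcript length, so CPM values of different genes are set side by side without a length correction. The 3' counts do not separate the splice forms of Fgfr2 that bind different ligands. RNA carried over from other wells, estimated from fibroblast and myeloid markers in epithelial cells and from keratins in fibroblasts, averaged between 3.48% and 10.2% of a class's UMIs by location.

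All 95 well barcode names recur in more than 1 fragment, and 0 cells had identical count columns. Leaving all FGF genes out of the clustering, 13 of which were among the variable genes, changed the class of 0 cells. This compared classes only, not the clusters within a class.

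By the GENCODE annotation of GRCm38, Etv5 lies on chromosome 16 from 22381309 to 22439719 on the minus strand, Dusp6 on chromosome 10 from 99263231 to 99267489 on the plus strand and Fgfr1 on chromosome 8 from 25513654 to 25575718 on the plus strand. At their 3' ends Fgf1, Fgf2 and Fgf7 overlap Arhgap26, Nudt6 and Fam227b on the opposite strand. The strand setting of the count is not given in the sources used here, so reads of these 3 ligands and of the overlapping genes may not have been told apart. RefSeq promoters (250 bases before to 50 after the start, GRCm38.p6) matched 8 of the 10 genes and were searched on both strands for motifs of factors that act at the end of the ERK cascade. The octamers of the repressor Capicua, TGAATGAA and TGAATGGA, are held by 1.3% and 1.21% of 32851 promoters, the ETS core CGGAAG by 16.85% and the AP-1 motif TGANTCA by 7.81%. Among these genes only the Dusp6 promoter held a match, to the ETS core, and its window is shown because Dusp6 was the most abundant feedback gene. The window lies at chr10:99263158-99263187 on the plus strand, the motif begins at position -62 from the gene start, and capitals mark its reverse complement.
Dusp6: ggcaacagcccCTTCCGcagcgcgctcatt

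Across the cell classes the ligands split between fibroblasts and basal cells. Fgf7, the keratinocyte growth factor, was a fibroblast gene: its level was 58.5 ± 45.5 CPM (SD, n = 13 fragments) in fibroblasts, and at most 4.01 CPM in any fragment of the basal, ER+ or ER- luminal classes. It was higher in fibroblasts than in basal cells in 13 of 13 fragments and had a UMI in 34.1% of fibroblasts (16.3% after each cell was thinned to 5000 UMIs), against 2.38% of basal cells, at median depths of 36416 and 25193.5 UMIs. The 7 Fgf7 UMIs in basal cells compare with 8.19 expected from other wells, and the 5 in ER+ luminal cells with 12.6. By location the basal Fgf7 UMIs were 2 in nipple against 5.46 expected, 4 in duct (in 4 cells) against 0.969 and 1 in TEB against 1.76. Summed over locations Fgf7 was not above the carry-over estimate in basal or ER+ luminal cells, whereas the few UMIs of duct basal cells were.

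Fgf10, the other ligand known from mammary stroma, was close to the limit of detection. It had 27 UMIs in 7 of the 252 fibroblasts, was found in 0 of 98 TEB fibroblasts, which allows a share of up to 3.06% of cells with a UMI, and in 0 of 178 ER- luminal cells, which allows up to 1.69%. Fgf2, a ligand without a classical secretion signal, had 28 UMIs in 7 fibroblasts and was found in 0 of 426 ER+ luminal cells, which allows up to 0.704%. At this depth neither ligand could be compared between locations.

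Among the named classes Fgf1, which binds all FGF receptors, was highest in basal cells. Its level there was 38.5 ± 22.1 CPM (SD, n = 16), against 4.40 ± 5.42 (n = 16) in ER+ luminal cells, 5.84 ± 11.9 (n = 14) in ER- luminal cells and 3.24 ± 4.14 (n = 13) in fibroblasts. Basal cells were above ER+ luminal cells in 16 of 16 fragments, above fibroblasts in 13 of 13 and above ER- luminal cells in 13 of 14. The 3 lower classes overlapped. A UMI of Fgf1 was found in 31.6% of basal cells (10.9% after thinning), in 5.40% of ER+ luminal cells and in 0 of 78 myeloid cells, whose median depth was 18965.5 UMIs. An unnamed cluster of 19 cells, described at the end, had a higher pooled Fgf1 level of 200 CPM.

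The receptors took different classes. Fgfr1 was highest in fibroblasts, with 556 ± 154 CPM (SD, n = 13), followed by basal cells with 158 ± 38.1 (n = 16), ER+ luminal cells with 64.2 ± 26.1 (n = 16) and ER- luminal cells with 53.1 ± 26.8 (n = 14). Myeloid cells spread widely, at 139.7 ± 162 CPM (n = 7). Fibroblasts exceeded basal cells in 13 of 13 fragments and basal cells exceeded ER+ luminal cells in 16 of 16, whereas both luminal classes overlapped. Fgfr2 was highest in ER+ luminal cells, at 144 ± 66.2 CPM, with basal cells next at 74.3 ± 27.7 and above them in 2 of 16 fragments. It was near 0 in the remaining classes, with 4.45 ± 3.64 CPM in ER- luminal cells and 6.97 ± 5.56 in fibroblasts. The 27 Fgfr2 UMIs in ER- luminal cells compare with 25.4 expected from other wells, and the 67 in fibroblasts with 42.8, so Fgfr2 in ER- luminal cells was not detectable above carry-over. Of the basal cells, 123 of 294 held UMIs of both receptors, and of the ER+ luminal cells 221 of 426 did.

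Dusp6 was the most abundant feedback gene, with like levels in basal cells (266 ± 99.9 CPM, n = 16) and ER- luminal cells (267 ± 92.6, n = 14), basal cells being higher in 7 of 14 fragments. It was lower in ER+ luminal cells at 45.7 ± 18.7 CPM, below basal cells in all 16 fragments, and in fibroblasts at 14.1 ± 17.4, where 95 UMIs compare with 59.8 expected from other wells. Etv5 was highest in basal cells, at 69.6 ± 69.3 CPM, against 3.91 ± 3.22 in ER+ luminal cells, 4.36 ± 5.86 in ER- luminal cells and 9.75 ± 5.76 in fibroblasts. Spry2 was highest in fibroblasts (71.8 ± 33.4 CPM), followed by ER- luminal (45.9 ± 34.5), basal (34.4 ± 17.6) and ER+ luminal cells (15.3 ± 12.2). Fibroblasts exceeded basal cells in 12 of 13 fragments for Spry2, while ER- luminal and basal cells overlapped, basal cells being higher in 5 of 14. Among basal, luminal and fibroblast cells Spry1 was low and uneven, between 7.2 ± 4.97 CPM in ER+ luminal cells and 26.8 ± 44.6 in fibroblasts, and these classes overlapped. Myeloid cells were lower, at 0.577 ± 1.53 CPM (n = 7), and below basal cells in 7 of 7 shared fragments. These class levels are descriptions, since the clusters were built from the same cells.

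**Figure D1:**
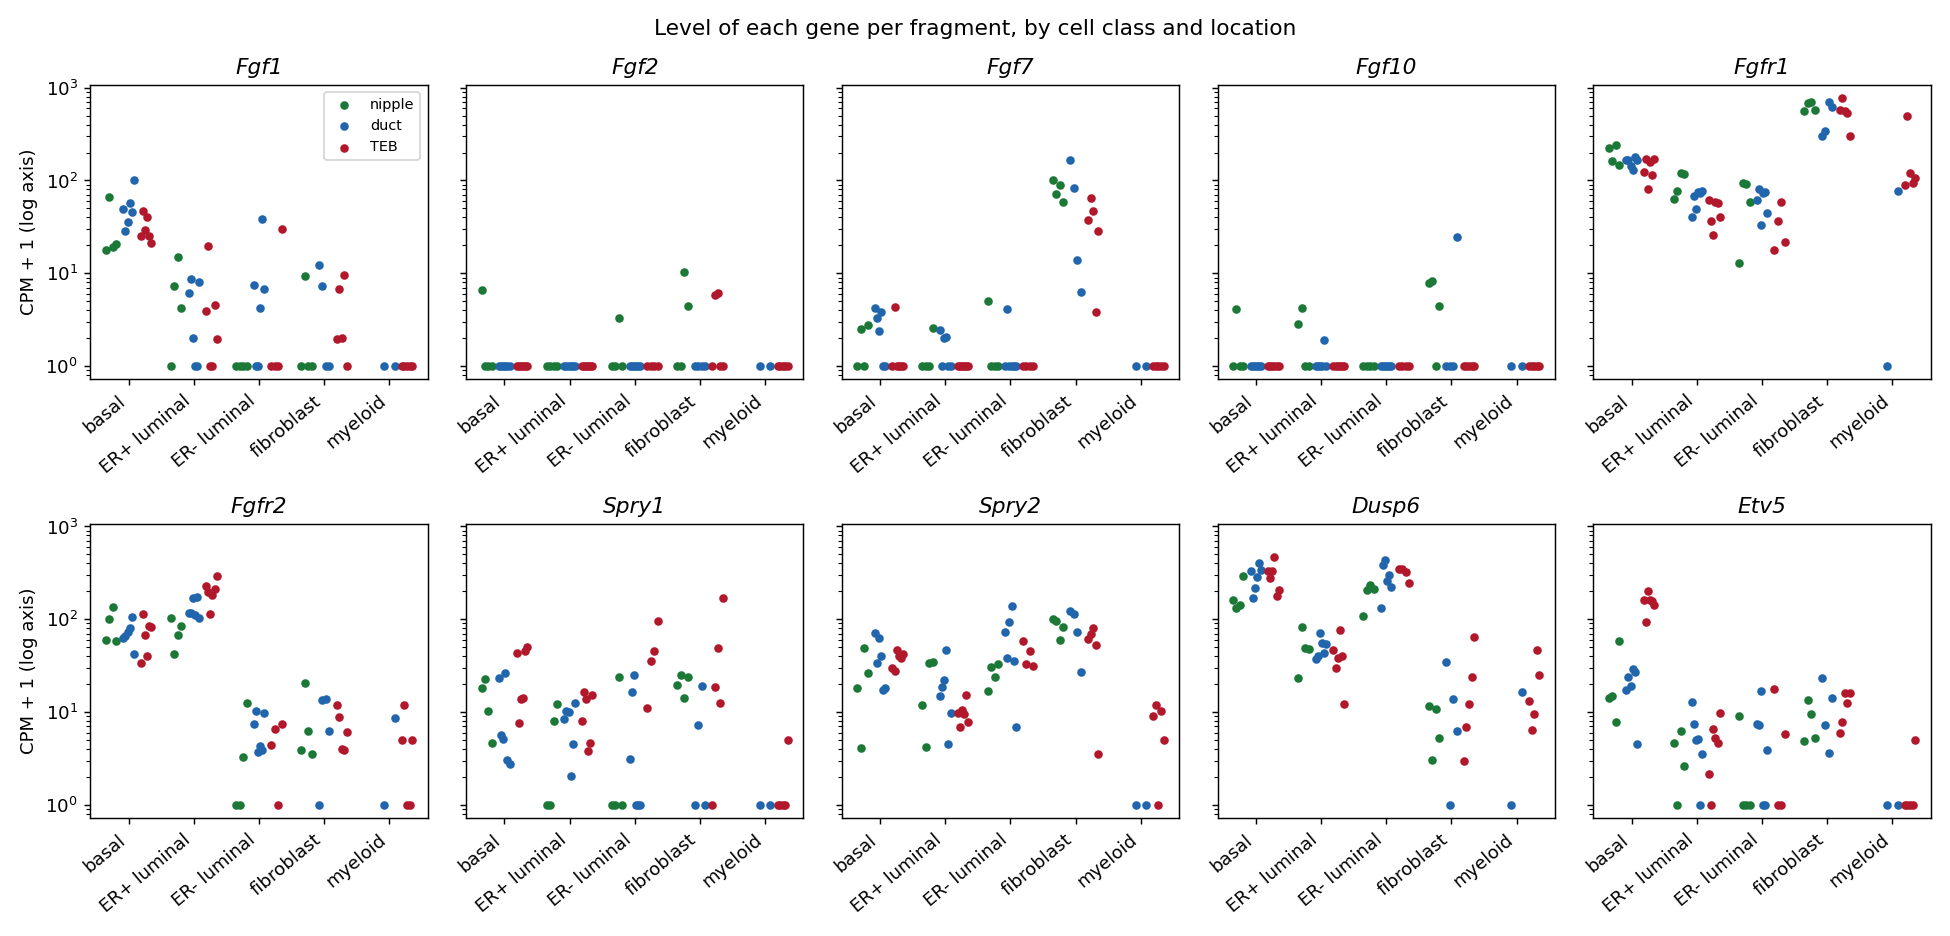
Level of each of the 10 genes (CPM + 1, log axis) by cell class, with 1 point per fragment coloured by location. Fgf7 and Fgfr1 are highest in fibroblasts, Fgf1 and Etv5 in basal cells, Fgfr2 in ER+ luminal cells, and Dusp6 lies between 108 and 472 CPM in every basal and ER- luminal sum.

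Within basal cells the location comparison turned on Etv5. Its level was 13.2, 13.8, 6.88 and 57.3 CPM in the 4 nipples, ran from 3.47 over a median of 20.6 to 28.2 CPM in the 6 ducts, and from 92.55 over a median of 158 to 199 CPM in the 6 TEBs. Every TEB lay above every duct and nipple, whereas nipples and ducts overlapped. Basal Etv5 was lower in nipple than in TEB by a log2 difference of -2.54 (SE 0.511, adjusted p = 4.04e-04, edgeR quasi-likelihood test with Benjamini-Hochberg adjustment over all genes tested) and lower in duct than in TEB by -2.82 (SE 0.452, adjusted p = 2.37e-05). Between nipple and duct the log2 difference was 0.28 (SE 0.514, adjusted p = 0.852). A UMI of Etv5 was found in 61 of 82 TEB basal cells, 21 of 115 duct cells and 10 of 97 nipple cells, against 3 of 78 myeloid cells. These shares were not taken at equal depth: the 82 TEB basal cells held 3733171 UMIs, the 115 duct cells 2891998 and the 97 nipple cells 2176725. The higher value of nipple replicate 24 came mostly from 1 cell, which held 60.8% of all Etv5 UMIs of nipple basal cells, and without that fragment Etv5 differed by -3.52 between nipple and TEB.

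Of the 7 of the 10 genes that passed the filter on low counts in basal cells, Etv5 was the only one called at an adjusted p below 0.05, in 2 of the 3 location pairs. Over all genes tested in basal cells 18.7% were called in nipple against TEB, 6.29% in the nipple to duct pair and 10.4% for duct against TEB, and the single call among 7 genes is close to these rates. Basal cells from TEBs formed a cluster of their own: 81 of 82 TEB basal cells were in cluster 5, while 96 of 97 nipple and 115 of 115 duct basal cells were in cluster 1. The summed level of the 9 basal markers was 4428 to 8180 CPM in TEB basal cells against 17373 to 26065 in nipple and duct, with all 9 detected at each location. Expression of 9 immediate early genes, which rise on tissue dissociation, summed to 1966 to 4084 CPM in TEB, 1444 to 3720 in duct and 1591 to 2017 in nipple basal cells, and their part in the result was not tested. Of the 568 Etv5 UMIs in TEB basal cells 21.8 were expected from other wells.

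The other feedback genes of basal cells did not pass the threshold, and their difference from Etv5 was not tested. Basal Dusp6 was 158, 132, 142 and 288 CPM in the nipples, 167 to 408 CPM with a median of 307 in ducts, and 178.5 to 472 CPM with a median of 302 in TEBs. Between duct and TEB the log2 difference of Dusp6 was 0.15 (SE 0.244, adjusted p = 0.779), and between nipple and TEB it was -0.55 (SE 0.278, adjusted p = 0.184). Nipple replicate 24 decided that last value: without it the Dusp6 log2 difference was -0.86 between nipple and TEB (adjusted p = 0.0436) and -1.02 between nipple and duct (adjusted p = 0.0423), by edgeR. Basal Spry1 ran from 6.61 to 49.3 CPM in TEBs, 3 of which lay above all other fragments and 3 within their range, and its duct minus TEB log2 difference was -1.45 (SE 0.792, adjusted p = 0.278). A Spry1 UMI was found in 27 of 82 TEB basal cells, 11 of 115 duct cells and 9 of 97 nipple cells, but TEB basal cells were deeper. In CPM, which is scaled for depth, Spry1 averaged 28.2 in TEB, 10.1 in duct and 12.8 in nipple basal cells. Its values thus ran in the direction of Etv5. Basal Spry2 overlapped fully, with 3.07 to 48.1 CPM in nipples, 16.1 to 70.7 in ducts and 26.4 to 46.0 in TEBs. The ligand Fgf1 was 17.0, 66.0, 18.3 and 19.7 CPM in nipple basal cells, 27.8 to 100.5 in ducts and 20.3 to 46.3 in TEBs, with a duct minus TEB log2 difference of 0.98 (SE 0.483, adjusted p = 0.223).

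The partner of Etv5, the ETS factor Etv4, was likewise highest in TEBs among basal cells. Etv4 was 24.5, 39.9, 4.58 and 8.96 CPM in nipples, 8.46 to 45.9 CPM in ducts and 142 to 355 CPM in TEBs, again with no overlap between TEBs and the rest. Its log2 difference was -3.19 (SE 0.479, adjusted p = 6.07e-06) between nipple and TEB and -2.59 (SE 0.395, adjusted p = 1.03e-05) between duct and TEB. In TEB basal cells 52 of 82 cells held UMIs of both Etv5 and Etv4. Among TEB basal cells with Etv5, 85.25% also held Etv4, against 61.9% of those without, but the cells with Etv5 were deeper (median 48370 against 28775 UMIs). In duct basal cells these shares were 28.6% of 21 cells and 19.15%. In nipple 0 of 10 basal cells with Etv5 held Etv4, against 8.05% of those without.

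**Figure D2:**
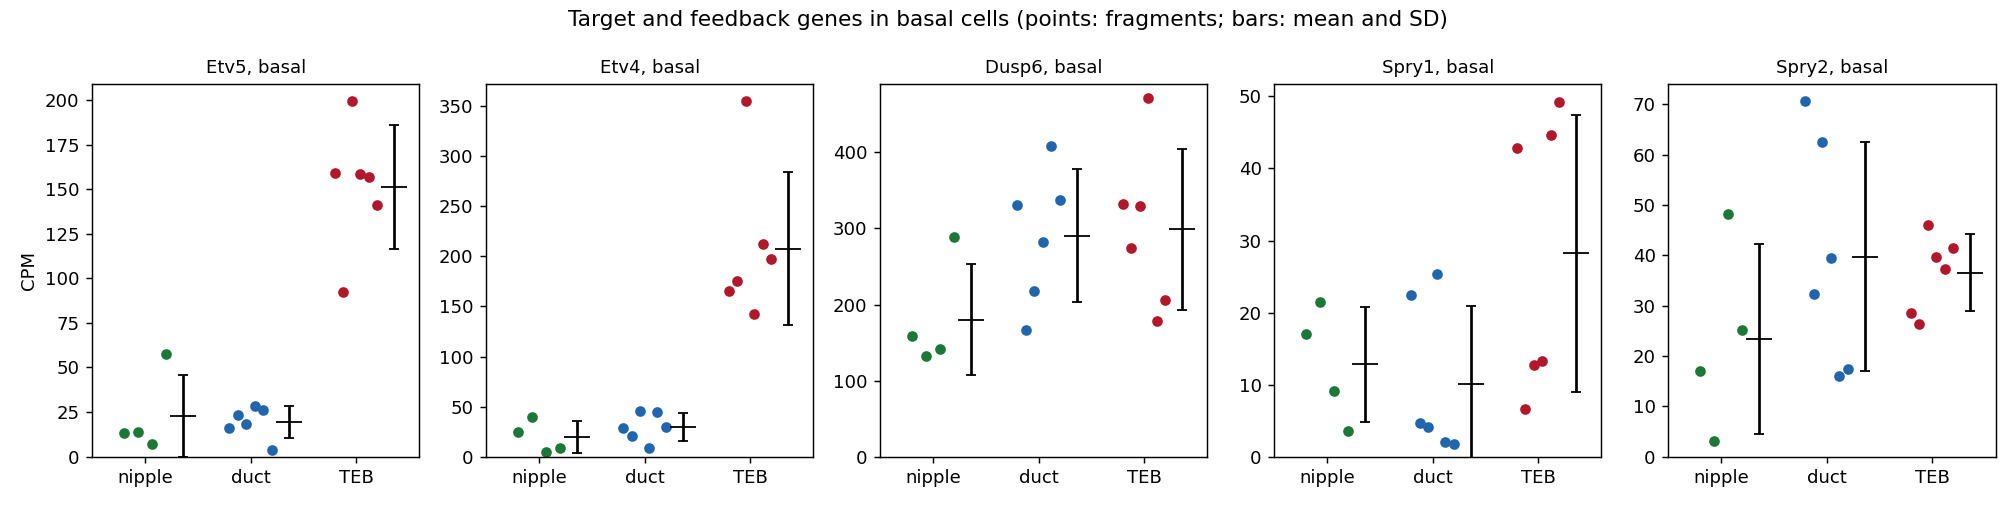
Levels in basal cells (CPM) of Etv5, Etv4, Dusp6, Spry1 and Spry2 in nipple, duct and TEB, with 1 point per fragment and the mean and SD as black bars. Etv5 and Etv4 are above every duct and nipple fragment in all 6 TEBs, while Dusp6, Spry1 and Spry2 overlap between locations.

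In ER+ luminal cells both receptors were called between nipple and TEB, in opposite directions. With each fragment left out in turn, the Fgfr2 call held in 16 of 16 fits and the Fgfr1 call in 9 of 16. Fgfr2 was 103, 41.2, 65.9 and 84.5 CPM in the 4 nipples, 102 to 173 CPM with a median of 116 in the 6 ducts, and 112.5 to 289 CPM with a median of 204 in the 6 TEBs. Every TEB was above every nipple, and ducts lay between and overlapped both. The log2 difference was -1.43 between nipple and TEB (SE 0.264, adjusted p = 5.76e-04), -0.84 between nipple and duct (SE 0.261, adjusted p = 0.0974) and -0.59 between duct and TEB (SE 0.215, adjusted p = 0.221), by the edgeR quasi-likelihood test.

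ER+ luminal cells held clusters 0 and 2, and nipple cells came less from cluster 0 (15 of 43) than TEB cells did (111 of 172). Pooled Fgfr2 was 87.3, 139 and 246 CPM in nipple, duct and TEB cells of cluster 0, and 75.1, 121 and 183 CPM in those of cluster 2, so the order of the locations was alike in both clusters. By fragment, here with any number of cells, cluster 0 ran from 0 to 181 CPM in nipples and 99.1 to 475 in TEBs. Cluster 2 ran from 39.8 to 89.1 CPM in nipples and 80.7 to 216 in TEBs. The nipple at 0 held 1 cell of cluster 0, and the TEB at 80.7 held 4 cells of cluster 2. With at least 5 cells per fragment, nipples (29.1 and 181 CPM) and TEBs still overlapped in cluster 0. In cluster 2 such nipples were at 39.8 to 89.1 CPM and such TEBs at 133 to 216, without overlap. A single cell gave 138 of the 1664 Fgfr2 UMIs of TEB cells.

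Fgfr1 in ER+ luminal cells was 62.55, 76.1, 120 and 116 CPM in nipples, 39.6 to 75.4 CPM with a median of 70.0 in ducts and 24.6 to 60.9 CPM with a median of 47.8 in TEBs. All nipples were above all TEBs, the nearest pair being 62.55 and 60.9 CPM. The nipple minus TEB log2 difference was 1.06 (SE 0.318, adjusted p = 0.0406). The 7 fibroblast markers summed to 898 to 2220 CPM in nipple ER+ luminal cells and to 168 to 370 in TEB ones. Fgfr1 UMIs expected from other wells were 59.5 of 200 in nipple, 81.5 of 470 in duct and 91.9 of 346 in TEB. Whether carry-over caused the Fgfr1 difference was not tested. After subtraction of the expected UMIs the Fgfr1 difference was 0.93 with an adjusted p of 0.183. The call was also lost without nipple replicate 23 or 24, duct replicate 32 or 52, or TEB replicate 32, 33 or 43, at adjusted p-values of 0.0504 to 0.133.

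For ER+ luminal cells 5 of the 10 genes were tested, and Fgfr1 and Fgfr2 were the 2 called, both between nipple and TEB, where 5.57% of all genes were called. The background was 2.0% in the nipple to duct pair and 1.64% for duct against TEB, with no FGF gene called there by edgeR, against 1 (nipple and duct) and 1 (duct and TEB) at an unadjusted p below 0.05, Fgfr2 in each case. Spry2 in ER+ luminal cells had log2 differences of 1.23 (SE 0.662, adjusted p = 0.328) between nipple and TEB and 1.07 (SE 0.592, adjusted p = 0.597) between duct and TEB. Its duct fragments ran from 3.56 to 45.5 CPM and its TEB fragments from 5.94 to 14.4. Dusp6 and Spry1 had adjusted p-values between 0.682 and 0.991 in all 3 pairs. Etv5 was not tested in these cells for low counts, at 2.62 ± 2.29 CPM in nipples, 4.80 ± 3.99 in ducts and 3.88 ± 3.13 in TEBs.

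**Figure D3:**
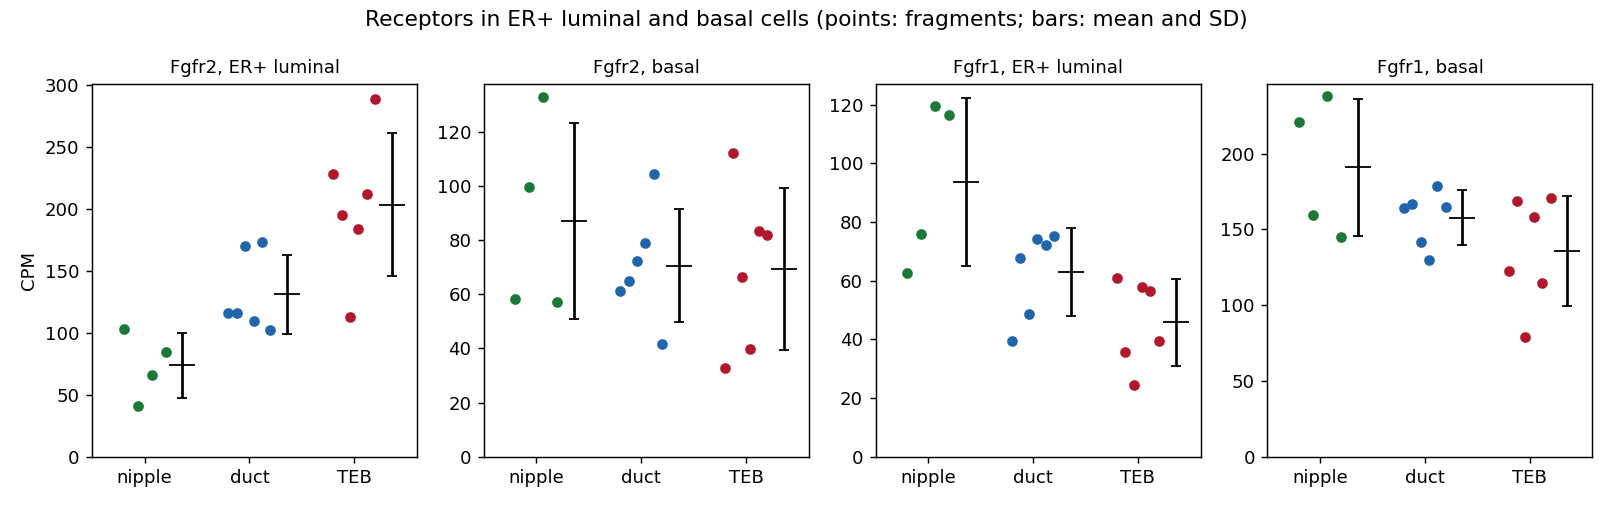
Fgfr2 and Fgfr1 levels (CPM) in ER+ luminal and basal cells of nipple, duct and TEB, with 1 point per fragment and the mean and SD as black bars. Fgfr2 of ER+ luminal cells is above all nipples in every TEB, and the basal panel shows 32.6 to 133 CPM without such a separation.

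The Fgfr2 difference of ER+ luminal cells was not shared by basal cells. Basal Fgfr2 was 58.5, 99.7, 133 and 57.3 CPM in nipples, 41.6 to 104.5 in ducts and 32.6 to 112 in TEBs, with a nipple minus TEB log2 difference of 0.49 (SE 0.392, adjusted p = 0.435). Tested in a single model over the 16 fragments with a term for each fragment, the nipple minus TEB difference of Fgfr2 was 2.02 log2 units higher in basal than in ER+ luminal cells (SE 0.470, adjusted p = 0.00481), a comparison in which 6.49% of genes were called. For Etv5 the duct minus TEB difference in basal minus that in ER+ luminal cells was -3.315 (SE 0.945, adjusted p = 0.0403), where 3.34% of genes were called. Etv5 passed the filter of this model through basal cells, having been too low to test in ER+ luminal cells alone, where 33 TEB UMIs compare with 26.2 expected from other wells, so the value restates the basal difference and shows no location effect in ER+ luminal cells. The call was lost with cells thinned to 5000 UMIs (adjusted p = 0.535) and on leaving out any of duct replicates 31, 32, 51, 52 and 62 or TEB replicates 31, 32, 33, 34 and 42, with adjusted p-values up to 0.132. The nipple minus TEB contrast of Etv5 gave -2.55 (SE 1.26, adjusted p = 0.252), and 1.55% of genes were called between nipple and duct, with no FGF gene of the 10 among them and 1, Fgfr2, at an unadjusted p below 0.05.

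Basal Fgfr1 was 221, 160, 238 and 145 CPM in nipples, 130 to 179 in ducts and 79.2 to 171 in TEBs, with a nipple minus TEB log2 difference of 0.65 (SE 0.263, adjusted p = 0.081). For this receptor no difference of the location effect between basal and ER+ luminal cells was called. Against ER- luminal cells no FGF gene of the 10 was called in any pair by edgeR and 0 had an unadjusted p below 0.05. Of all genes, 2.08% were called in nipple against TEB, 1.17% in the nipple to duct pair and 1.15% for duct against TEB.

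ER- luminal cells showed no called location difference among the 3 genes tested, Fgfr1, Spry2 and Dusp6, by edgeR or DESeq2, and 0 had an unadjusted p below 0.05. The background was 4.57% in nipple against TEB, 1.63% in the nipple to duct pair and 1.14% for duct against TEB. Dusp6 was 108, 204.5, 233 and 212 CPM in nipples, 130.5 to 432 in the 6 ducts and 349, 348, 321 and 246 in the 4 TEBs with enough cells. All 4 TEBs were above all nipples, although the log2 difference of Dusp6 between nipple and TEB was -0.61 (SE 0.318, adjusted p = 0.336). Spry2 was 16.0, 29.2, 23.03 and 31.6 CPM in nipples, 57.1, 31.7, 44.0 and 30.4 in TEBs and 5.83 to 137 in ducts. Spry1 did not pass the filter on low counts in ER- luminal cells and was not tested. Its values were 0, 0, 23.03 and 0 CPM in nipples, 0 to 23.99 in ducts and 10.1, 34.4, 44.0 and 94.2 in TEBs, and 17 of 49 TEB cells held its 97 UMIs, against 2 of 48 nipple and 6 of 81 duct cells. The shares of cells were not taken at equal depth.

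In fibroblasts Fgf7 was the only one of the 4 ligands that passed the filter on low counts. Fgf7 was 101, 70.5, 87.9 and 58.0 CPM in the 4 nipples, 167, 81.9, 12.9 and 5.20 in the 4 ducts with enough cells, and 36.25, 63.0, 46.5, 2.86 and 27.7 in 5 TEBs. The nipples were even and all but 1 TEB lay below them, while the ducts spread over the whole range. The log2 difference of Fgf7 was 1.22 between nipple and TEB (SE 0.674, adjusted p = 0.612), 0.53 between nipple and duct (SE 0.767, adjusted p = 0.887) and 0.69 between duct and TEB (SE 0.744, adjusted p = 0.814). None of the 7 genes tested in fibroblasts was called in any pair by edgeR or DESeq2, and 1 had an unadjusted p below 0.05, Spry1 between duct and TEB. In all, 1.54% of genes were called in nipple against TEB, 0.2% in the nipple to duct pair and 0.271% for duct against TEB. Duct fibroblasts numbered 38 cells over all fragments, and their sums went down to 89639 UMIs.

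Fgfr1 in fibroblasts was 566, 675, 709 and 580 CPM in nipples, 301, 340, 700 and 611 in ducts and 580, 768, 565, 534 and 303 in TEBs, with adjusted p-values of 0.757 to 0.973. Spry2 of fibroblasts was 100, 94.4, 59.45 and 81.9 CPM in nipples, 123, 113, 72.3 and 26.0 in ducts and 60.75, 68.8, 79.8, 51.4 and 2.52 in TEBs. Spry1 of fibroblasts was 18.45, 23.85, 13.2 and 23.03 CPM in nipples, at most 18.1 in ducts, and 0, 17.45, 47.5, 11.4 and 169 in TEBs. TEB replicate 42, which held that last value and the lowest Spry2, had 6 fibroblasts, of which 4 belonged to cluster 10.

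The fibroblasts of the 3 locations came largely from different clusters. Cluster 4 (led by Crabp1 and Cthrc1) held 86 nipple cells of 87, cluster 9 (led by Pi16 and Akr1c18) 64 TEB cells of 68, cluster 7 (led by Myoc and Scg3) 29 nipple, 28 duct and 16 TEB cells, and cluster 10 (led by F2r and Mmd) 18 TEB and 6 duct cells. Fgf7 was at 77.3 CPM in cluster 4 (95% exact Poisson interval 68.4 to 87.1), 70.3 in cluster 7 (60.5 to 81.3) and 47.6 in cluster 9 (39.8 to 56.4), and no UMI was found in the 24 cells of cluster 10, with an upper bound of 3.32 CPM. Fgf10 had 19 UMIs in 5 cells of cluster 7, 8 UMIs in 2 cells of cluster 4 and none in clusters 9 and 10. These intervals cover counting error only. FGF genes were among the variable genes that built these clusters, and levels in clusters built without them were not compared.

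Spry1, Dusp6 and Etv5 were instead highest in fibroblast cluster 10. Spry1 was at 137 CPM in cluster 10 (116 to 160), against 13.45 in cluster 4, 16.1 in cluster 7 and 0.716 in cluster 9. Dusp6 was at 46.8 CPM in cluster 10 (35.0 to 61.4) and at 3.22 to 7.73 in the other 3 clusters. Etv5 was at 45.0 CPM in cluster 10 (33.4 to 59.3) and at 3.58 to 8.07 in the others. In cluster 10 Spry1, Dusp6 and Etv5 had UMIs in 10, 11 and 11 of its 24 cells, which came from 9 fragments. Spry2 showed no such pattern, with 56.7 CPM in cluster 10 and 92.5 in cluster 4. Fgfr1 was lower in cluster 10, at 382 CPM, than in the other clusters, at 628 to 672. The 6 duct cells of cluster 10 gave 7 of its 152 Spry1 UMIs, all in 1 cell. The fibroblasts of TEB replicate 42, 4 of 6 in cluster 10, held 67 Spry1 UMIs. Carry-over was not estimated for this cluster. Over all TEB fibroblast sums 52 Dusp6 UMIs compare with 26.6 expected from other wells, and over duct sums 10 with 10.2.

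**Figure D4:**
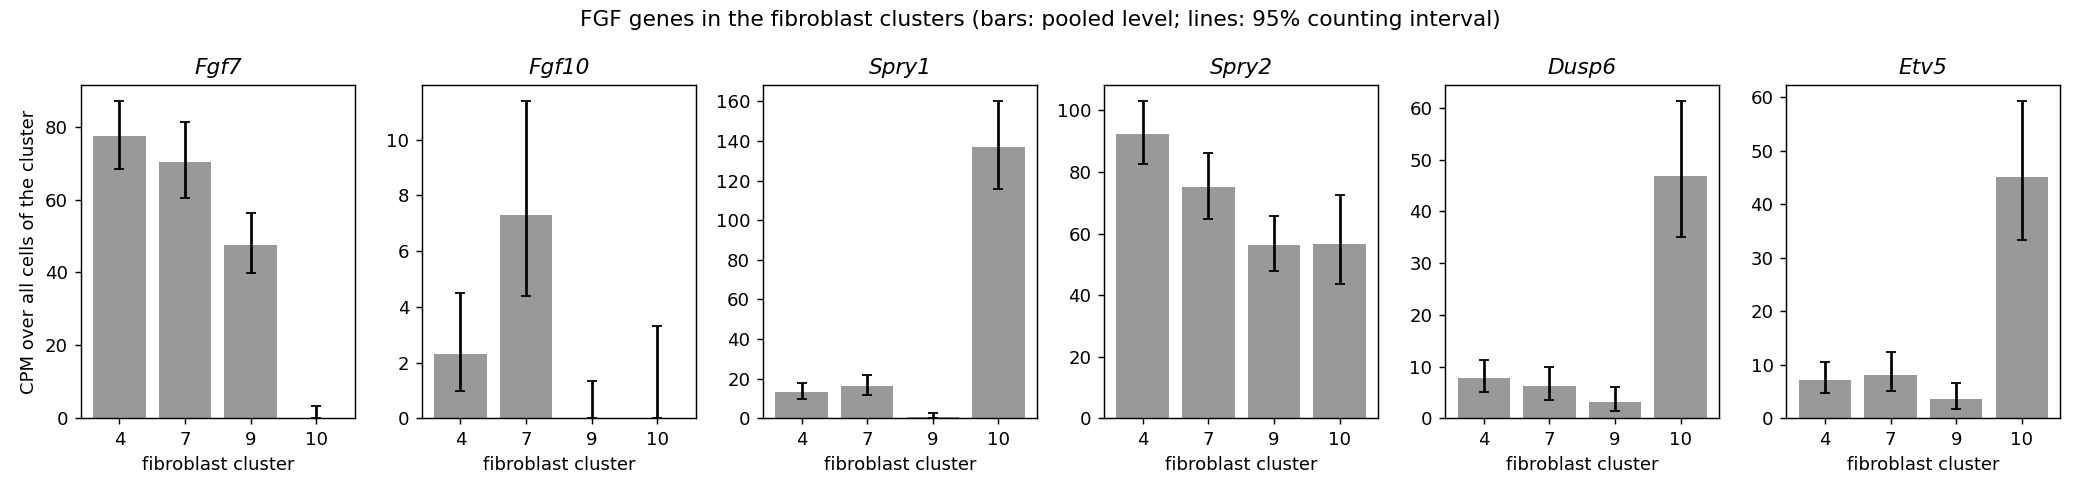
Pooled level (CPM, over all cells of a cluster) of 6 FGF genes in the 4 fibroblast clusters, with 95% counting intervals as lines. Fgf7 is present in clusters 4, 7 and 9 and at 0 in cluster 10, where Spry1, Dusp6 and Etv5 are highest.

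A wider list of 75 other pathway genes, 68 of them in the table, places the 10 in context. Of 18 other ligands 13 were in the table, none of which was tested in an epithelial class. In fibroblasts 2 were tested and neither was called by edgeR in any pair, against at most 1 at an unadjusted p below 0.05. Of the 15 tested genes for adaptors and the ERK cascade none was called by edgeR in basal cells, ER+ luminal cells or fibroblasts in any pair, against at most 3 at an unadjusted p below 0.05, and none of 12 was in ER- luminal cells, against 0. The wider calls in basal cells were Etv4 and Dusp7 among 5 tested feedback and target genes, Sdc1 and Sdc4 among 15 tested heparan sulfate genes and Fgfr3 among 2 tested receptors. Over all basal genes 18.7%, 6.29% and 10.4% were called in the 3 pairs, so the heparan sulfate genes were not called more often than genes at large between nipple and TEB.

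Besides Etv4, the ERK phosphatase Dusp7 was called in basal cells, in the opposite direction. Dusp7 was 206, 179.5, 252 and 215 CPM in nipples, 171 to 254 in ducts and 33.02 to 155 in TEBs, with log2 differences of 1.42 between nipple and TEB (SE 0.285, adjusted p = 3.91e-04) and 1.43 between duct and TEB (SE 0.264, adjusted p = 1.69e-04). All TEBs were below all other fragments. The duct minus TEB call of Dusp7 was lost over replicate numbers that start with 3 (adjusted p = 0.199, edgeR). Fgfr3, a further receptor, was called between duct and TEB at a log2 difference of 3.30 (SE 1.06, adjusted p = 0.0393), at 4.02 to 48.2 CPM in ducts and 0 to 13.2 in TEBs, 4 of which were at 0, and it missed the threshold on leaving out any of duct replicates 31, 32, 51 and 62 or TEB replicates 31, 32, 33, 42 and 43, at adjusted p-values up to 0.0874. The Fgfr3 call was also lost with classes set by a marker score per cell and with at least 10 cells per fragment. It was lost too over replicate numbers starting with 3, with adjusted p-values up to 0.284 in these settings.

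Sdc4 and Sdc1 encode syndecans, transmembrane carriers of heparan sulfate chains that serve as FGF co-receptors. Basal Sdc4 was 1825, 1562, 2305 and 2160 CPM in nipples, 1235 to 2421 in ducts and 456 to 674 in TEBs, a log2 difference of 2.0 between nipple and TEB (SE 0.152, adjusted p = 6.74e-12) and 1.89 between duct and TEB (SE 0.142, adjusted p = 3.79e-12). Sdc4 was also lower in TEBs in ER- luminal cells, by 1.09 between nipple and TEB (SE 0.209, adjusted p = 0.00159) and 0.84 between duct and TEB (SE 0.193, adjusted p = 0.0205). The last call was lost without TEB replicate 33 or 42. Basal Sdc1 was 315, 176, 284 and 260 CPM in nipples, 779 to 954 in ducts and 314 to 871 in TEBs, so nipples lay below all ducts but overlapped the lowest TEB. Its log2 difference was -1.73 between nipple and duct (SE 0.234, adjusted p = 7.26e-06), -1.08 between nipple and TEB (SE 0.230, adjusted p = 8.61e-04) and 0.65 between duct and TEB (SE 0.196, adjusted p = 0.0283). TEB replicates 42 and 43 were at 314 and 343 CPM and the other 4 at 569 to 871, and the duct minus TEB difference of Sdc1 was 0.31 (adjusted p = 0.578) over replicate numbers that start with 3. This basal call of Sdc1 was also lost without duct replicate 61 or 62, or TEB replicate 31, 42 or 43, at adjusted p-values up to 0.0878. Sdc1 was called between nipple and TEB in ER+ luminal cells too, at -0.71 (SE 0.209, adjusted p = 0.0361), and Gpc6, a glypican, in ER- luminal cells at 3.76 (SE 0.718, adjusted p = 0.00122). Without nipple replicate 21 or 24, or TEB replicate 32, 34 or 43, the ER+ call of Sdc1 was lost.

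Described over the 15 means of class and location, the genes whose log2(CPM + 1) pattern was most like a member's were Smoc2 and Ms4a4d for Fgf7 (Pearson r 0.98 and 0.979), Rrbp1 for Fgfr1 (0.964), Ggt1 for Fgfr2 (0.917), Ntf5 for Fgf1 (0.922), Ubtd2 for Spry2 (0.968), 2410076I21Rik for Dusp6 (0.931), Sema6a for Etv5 (0.872) and Arl2bp for Spry1 (0.896). They were picked from 6944 candidates, and the points share fragments and depth. The second match of Spry2 was Hs2st1 (0.952), an enzyme of heparan sulfate synthesis.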

How the data were processed

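The deposited values are raw UMI counts per gene and cell, which the authors made from FACS-sorted single cells (96-well plates, ERCC spike-ins, 3' SMART-seq) with Trim Galore, FastQC, UMI-tools, STAR and featureCounts on mm10. Tool versions and the strand setting are not given in the sources used here. The table held 1419 cells, the number in the study's methods (its results text gives a larger one), with 17721 genes and 67 ERCC rows, which took 0.758% of UMIs and stayed out of library sizes and tests.

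The filters removed cells with over 5% ERCC, with fewer than 5000 or more than 120000 UMIs, or outside 200 to 6000 genes. They were clustered in Seurat 5.3.0 (2000 variable genes, 14 components, resolution 0.5) with regression of ERCC share, cell-cycle scores and gene number. Doublets were limited by the UMI maximum alone. Clusters were named by markers with at least 3 detected.

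For each class, the counts of a fragment's cells were added up where it had 5 or more, and the sums were tested with edgeR 4.0.16 in R 4.3.3 (TMM, low-count filter, quasi-likelihood, Benjamini-Hochberg over all genes tested, threshold 0.05, two-sided). The test between classes added a term for each fragment. The median gene in these fits lay within 0.1 log2 units of 0 except in fibroblasts (0.13 for nipple minus duct, -0.123 for duct minus TEB). UMIs expected from other wells were the fragment's pooled profile, which includes the class itself, times the carry-over share. Shares of cells were also computed after thinning to 5000 UMIs. A count of 0 allows up to 3 counts, and intervals are exact at 95%, both for counting error only. Likeness was computed for members of at least 20 CPM against genes of at least 50 CPM with a pseudocount of 1.

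All members were named, and of the wider list only genes called in a location pair. The members and lists were chosen with earlier results of these data known. The scripts were tested on simulated data. Alternatives were other cell filters, clusterings, scalings and filters, DESeq2 1.42.0, subtraction of other wells, thinning and leaving out each fragment.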

Additional observations from a re-analysis of the deposited data

Results flagged for a closer look

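In 5 of 66 groups of 4 to 6 fragments, a single fragment lay far from the others by Dixon's test, which chance gives in about 1 of 20 groups. Fgf1 in basal cells was 65.97 CPM in nipple replicate 22, against 16.97 to 19.7 in the other 3 nipples. In basal cells of nipple replicate 24, Dusp6 was 288.4 CPM against 131.9 to 158.4 in the other nipples, and Etv5 was 57.32 CPM against 6.875 to 13.81. Fgfr2 in fibroblasts was 19.7 CPM in nipple replicate 22, against 2.559 to 5.285 in the other nipples. Spry1 in fibroblasts was 168.9 CPM in TEB replicate 42, whose sum held 6 cells, against 0 to 47.49 in the other TEBs.

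By the edgeR test of the difference itself, the location effect of Fgfr2 differed between basal and ER+ luminal cells. For Fgfr2 the nipple minus TEB log2 difference was 2.016 higher in basal cells (adjusted p = 0.00481). For Etv5 the duct minus TEB log2 difference in basal cells minus that in ER+ luminal cells was -3.315 (adjusted p = 0.0403), but Etv5 was too low to test in ER+ luminal cells alone, so this value restates the basal difference.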

How the results depend on the processing

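None of the differences that were followed changed direction under any alternative. They were the called ones, basal Dusp6 between nipple and the other locations, and ER+ luminal Fgfr2 in its uncalled pairs. Direction was not followed for the other uncalled differences. In basal cells Etv5 was called between nipple and TEB and between duct and TEB under every alternative run, at log2 differences of -3.52 to -2.26 and -2.96 to -2.58 with 1 fragment left out. The number of the 10 genes called in basal cells was 1, and 1 to 2 with a fragment left out, 2 being without nipple replicate 24. In ER+ luminal cells it was 2, and 1 with no low-count filter, with only the 2 locations compared and with other wells subtracted, Fgfr1 being lost, and 1 to 2 with a fragment left out. Between basal and ER+ luminal cells it was 2, and 1 with cells thinned, Etv5 being lost (adjusted p = 0.535), and 1 to 2 with a fragment left out. Etv5 entered this count through basal cells, being too low to test in ER+ luminal cells alone, so only Fgfr2 was a called difference between the classes. ER- luminal cells and fibroblasts had 0 throughout, and the class with the highest level stayed the same for 10 of 10 genes when clustered without FGF genes. It stayed for 9 of 10 with classes set by a marker score per cell, Dusp6 moving from ER- luminal to basal cells, and for 9 of 10 with cells thinned, Fgf10 moving from fibroblasts to ER+ luminal cells. The cause of these changes was not tested. Without regression in the clustering, nipple gave no basal value, so only duct and TEB were compared.

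Duct and TEB share the label numbers 31 and 32, but same-numbered samples did not deviate together (correlations of -0.014 to 0.044). With the replicate block, basal Etv5 was -2.78 between duct and TEB and the count of the 10 genes called in basal cells stayed at 1. Sdc1 missed the threshold with the block (0.67, adjusted p = 0.0535).

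Counts over all genes moved by more than 1.5 times in several settings. With cells thinned they were 621, 274 and 443 in basal cells for nipple against TEB, nipple against duct and duct against TEB (1369, 460 and 760 in the report's test), 218 and 74 in ER+ luminal cells for the first 2 pairs (489 and 176), and 150 in ER- luminal cells for the first (261). Over replicate numbers starting with 3 the basal duct against TEB count was 213. DESeq2 gave 289 and 228 in ER+ luminal cells for the last 2 pairs (176 and 144) and 406, 178 and 136 in ER- luminal cells (261, 93 and 65). In fibroblasts it gave 295, 141 and 142 (131, 17 and 23), and at least 10 cells per fragment gave 489, 154 and 329. Fgf2 and Fgf10 were too low to be tested in any class, and myeloid cells were not tested between locations.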

Other observations

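Cluster 11, which was left unnamed (19 cells, led by Gm13889, Avpr1a and Pcp4l1, with Rgs5 and Des among its 10 leading genes), had the highest pooled Fgf1 of the 12 clusters, at 200 CPM (95% exact Poisson interval 152 to 260; 57 UMIs in 10 cells). It also held Spry2 at 172 CPM and Spry1 at 94.9 CPM. Cluster 8, also unnamed (70 cells, led by the mast cell genes Tpsb2, Cma1 and Cpa3), held Fgfr2 at 127 CPM and Etv4 at 34.5 CPM.

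Fgf18, a ligand chosen after its values were seen, was 65.0 ± 42.1 CPM (SD, n = 5) in TEB fibroblasts, 38.9 ± 48.1 (n = 4) in duct and 9.10 ± 0.924 (n = 4) in nipple fibroblasts, and 99.5 CPM over the cells of cluster 9. By fragment, Fgf18 ran from 0 to 107 CPM in TEB fibroblasts. Fgf21, chosen the same way, was 118 ± 57.7 CPM in nipple fibroblasts and 99.1 ± 159 in TEB ones, where a single cell held 59.9% of its UMIs. Neither ligand was called between locations in fibroblasts.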
